A study of Mus musculus with 42 samples.

Results

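The transcripts of 8 genes of ubiquitin-dependent protein removal were followed through arsenic stress and recovery in mouse cells. They were the AN1 zinc finger genes Zfand2a, Zfand2b, Zfand5 and Zfand6, the ATPase gene Vcp, the autophagy receptor gene Sqstm1, and the ATG8 family genes Gabarapl1 and Map1lc3b. They were chosen by name, with earlier results of these data known. They are 8 of 12364 genes in the RNA-seq libraries and of 14212 genes with reads at a polyadenylation site (PAS) in the 3′READS libraries. 3′READS is a method that sequences the last bases before the poly(A) tail. For 3′READS, every PAS on the gene's strand from its annotated start to 4 kb past its end, or to the next gene, was counted. This took in 69 of 83590 PASs.

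The series holds 42 libraries, 38 of 3′READS and 4 of RNA-seq, from NIH3T3, a mouse fibroblast line, and C2C12, a mouse myoblast line. NT cells were not treated, AS cells had 250 µM sodium arsenite for 1 h, and RC4, RC8, RC12 and RC24 cells were then washed and kept in normal medium for 4, 8, 12 or 24 h. The labels give C57BL/6 as the strain of every sample and name no transgene or deletion in any group. NIH3T3 cells gave RNA-seq (NT 2, AS 1, RC4 1), 3′READS of total RNA (NT 3, AS 3, each recovery time 1), of 4sU and Ft fractions (NT 2, AS 1, RC4 1 in each), and of TIA1 RIP and its cytoplasmic input (2 libraries each in NT and AS). For the fractions, cells took up 50 µM 4-thiouridine for 1 h before harvest: 4sU is the labelled, newly made RNA, and Ft the flow-through, mostly made earlier. C2C12 cells were proliferating myoblasts (MB) or differentiated myotube cultures (MT), each with cytoplasmic RNA (NT 2, AS 1, RC4 1) and total RNA without arsenite (2 libraries). The labels do not say which replicates came from separate cultures, so p-values measure the spread between these libraries, which may be technical. The NT libraries of the RNA-seq, 4sU, Ft and cytoplasmic C2C12 sets were taken at label times of 0 and 4 h and were used together. They are called NT replicates 1 and 2 below, but within each of these sets all labels carry the same number. The p-values of these sets therefore measure the spread between label times and do not cover differences between numbers.

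AN1 zinc finger proteins carry a small zinc-binding domain and bring ubiquitinated proteins to the proteasome. ZFAND2A, known as the arsenite-inducible proteasome partner, binds the proteasome in arsenite-treated cells, and ZFAND2B is its membrane-attached relative. ZFAND5 binds both ubiquitin and the proteasome and is linked to muscle wasting, and ZFAND6 has the same pair of zinc finger types. VCP is a hexameric ATPase that pulls ubiquitinated proteins out of complexes and membranes and works with many cofactors, ZFAND2B among them. SQSTM1 binds ubiquitin at its one end and lipid-bound ATG8 proteins through a short motif, so that its cargo is enclosed in autophagosomes. GABARAPL1 and MAP1LC3B are ATG8 proteins, the small ubiquitin-like proteins conjugated to the autophagosome membrane.

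The PASs that define these transcripts are shown because every 3′READS level below is a count of reads at them. Each line gives the 30 bases that end at the cleavage site, read 5′ to 3′ on the gene's strand from the mm9 genome, with the poly(A) signal in capitals.
Zfand2a, chr5:139947170-139947199, minus strand: atggttAATAAAaattatttatttcaccca
Zfand2b, chr1:75168169-75168198, plus strand: ccgggaagAGTAAAgactggcaatcagtaa
Zfand5, chr19:21356488-21356517, plus strand: tgtaaatAATAAAagcagtgtacagaggga
Zfand6, chr7:91763555-91763584, minus strand: ttaAATAAAaaggaaaactcgaaaaaaaaa
Sqstm1, chr11:50013657-50013686, minus strand: acctgtAATAAAatggcatatgcactttaa
Gabarapl1, chr6:129492317-129492346, plus strand: agggaAATAAAataattgcttaccttaaaa
Map1lc3b, chr8:124121917-124121946, plus strand: tgatgcactAATAAAggcacaacgaacctg
Zfand2b carries the variant AGTAAA and the other listed sites the canonical AATAAA. These sites held 94.43% of the Zfand2a reads over all libraries, 100% of Zfand2b, 99.01% of Zfand5, 99.15% of Zfand6, 82.91% of Sqstm1, 93.0% of Gabarapl1 and 91.48% of Map1lc3b. The genes had between 4900 reads (Zfand2b) and 49325 reads (Zfand5) in the 38 libraries. Vcp had only 467, listed in 27 libraries at no more than 13.6 normalised RPM, at a site with AATAAA (251 reads) and at one with no signal (205 reads), while RNA-seq gave it at least 752 normalised RPM. For Vcp only RNA-seq was therefore read.

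The 3′READS libraries held 1048335 to 6974664 reads and the RNA-seq libraries 17137579 to 25194062. The lowest count listed in the PAS table was 5, so a 0 means fewer than 5 reads. All 6 fibroblast markers were listed in NIH3T3 cells, and myotube markers summed to 22190 to 23160 RPM in MT against 79.54 to 83.25 in MB total RNA. All 5 arsenite response markers (Hmox1, Dnajb1, Hspa1a, Hspa1b, Hsph1) rose in RNA-seq AS and RC4. Levels are given as normalised RPM, the reads per 1000000 of a library after median ratio scaling within one set of libraries, and are not compared between sets. Marker sums are plain RPM, without that scaling. A gene was called changed at an adjusted p under 0.05 in edgeR's quasi-likelihood test with Benjamini-Hochberg adjustment over all genes. AS and RC4 were tested against the same NT libraries, and a lone library was assumed to vary like the NT libraries. In bulk RNA, fewer cells with a transcript and less transcript per cell cannot be told apart.

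Zfand2a, Zfand5 and Sqstm1 rose during the hour of arsenite, and 7 of the 8 genes were called higher 4 h after it was removed. In RNA-seq, Zfand2a had 9.36 and 10.4 normalised RPM in NT, 47.6 in AS and 478 in RC4. The transcript that codes for the arsenite-inducible proteasome partner was thus higher in AS than in either NT library and higher again in RC4, with log2 fold changes of 2.27 ± 0.16 (SE) in AS (adjusted p = 2.29e-08, edgeR) and 5.59 ± 0.17 in RC4 (adjusted p = 6.2e-15, edgeR). Sqstm1 had 338 and 263 normalised RPM in NT, 760 in AS and 4672 in RC4. Its log2 fold change was 1.34 ± 0.14 in AS (edgeR adjusted p = 4.11e-06) and 3.96 ± 0.14 in RC4 (edgeR adjusted p = 1.47e-13). For Zfand5 the levels were 136 and 130 in NT, 343 in AS and 650 in RC4. This ubiquitin-binding member rose by 1.37 ± 0.14 on the log2 scale in AS (edgeR adjusted p = 2.68e-06) and by 2.29 ± 0.14 in RC4 (edgeR adjusted p = 2.03e-10). In AS these 3 of 8 were the members called, against 3.29% of all 11648 genes called higher.

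The ATG8 genes were called in RC4 and not in AS. Gabarapl1 had 26.0 and 20.8 normalised RPM in NT, 31.9 in AS and 92.0 in RC4, with a log2 fold change of 0.45 ± 0.20 in AS (edgeR adjusted p = 0.275) and 1.97 ± 0.19 in RC4 (edgeR adjusted p = 1.11e-07). Map1lc3b had 85.6 and 73.7 in NT, 106 in AS and 210 in RC4, with 0.41 ± 0.16 in AS (edgeR adjusted p = 0.201) and 1.40 ± 0.15 in RC4 (edgeR adjusted p = 6.74e-07). Both genes were above the NT range in AS and further above it in RC4. Vcp had 810 and 842 normalised RPM in NT, 752 in AS and 1176 in RC4, a log2 fold change of -0.14 ± 0.13 in AS and 0.51 ± 0.13 in RC4 (edgeR adjusted p = 0.00319). Zfand6 had 8.54 and 10.5 in NT, 11.7 in AS and 16.0 in RC4, with 0.75 ± 0.25 in RC4 (edgeR adjusted p = 0.0178). Zfand2b, the relative of Zfand2a, had 9.90 and 11.4 in NT, 12.3 in AS and 12.2 in RC4 and was not called, with 0.19 ± 0.25 in RC4 (edgeR adjusted p = 0.554). In RC4, 26.6% of all genes were called higher, so 7 of 8 is to be read against a broad change, and the median log2 fold change was 0.003 over all genes. Scaling by library totals moved that median to -0.801, took Vcp to -0.30 and Zfand6 to -0.05, neither called, and took Zfand2b to -0.61, called lower (edgeR adjusted p = 0.045, highest over the alternatives 0.807). DESeq2 did not call Zfand6 (adjusted p = 0.211). The same scaling moved the share of called genes that were higher from 54.1% to 15.0%. With 4 libraries and 1 residual degree of freedom, these calls rest on the spread between the 2 NT libraries.

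**Figure D1:**
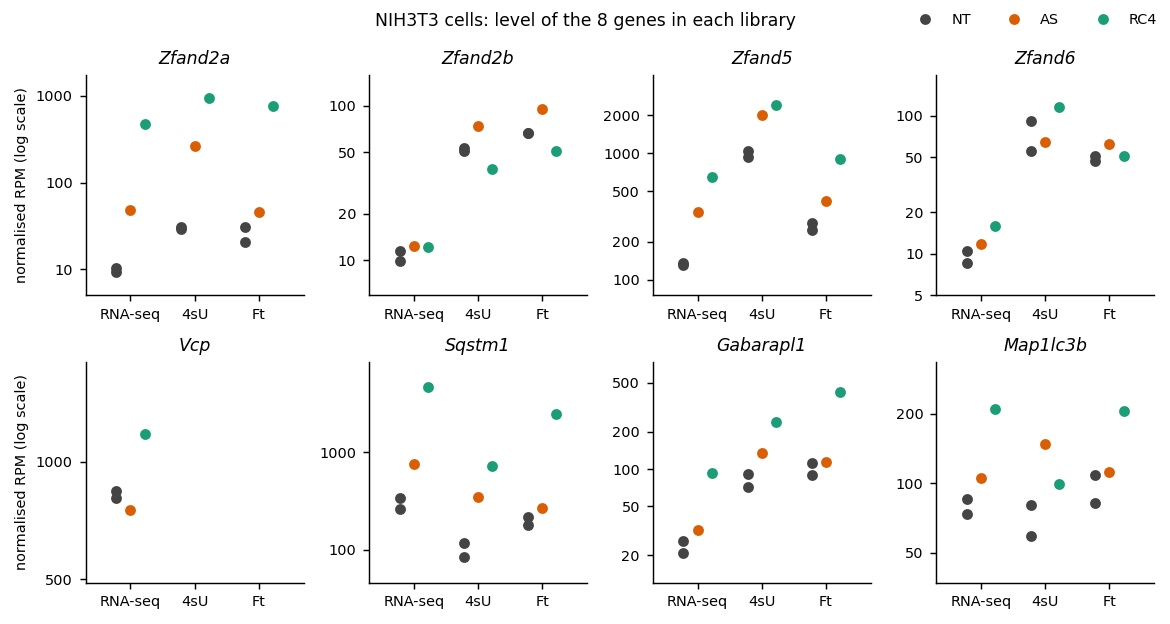
Normalised RPM (log scale) of each gene in every NIH3T3 RNA-seq, 4sU and Ft library, 1 point per library, with NT in grey, AS in orange and RC4 in green; levels are comparable within a column of 1 method or fraction set. Zfand2a reached 478 in RNA-seq RC4 from 9.36 and 10.4 in NT, while Zfand2b stayed between 9.90 and 12.3 in RNA-seq, and Vcp is drawn for RNA-seq only.

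In AS, Zfand2a was called in newly made RNA and not in Ft, and in RC4 in both. In the 4sU fraction Zfand2a had 30.8 and 29.4 normalised RPM in NT, 263 in AS and 937 in RC4, and in Ft 30.5 and 20.5 in NT, 45.9 in AS and 769 in RC4. The 4sU value in AS was far above both NT libraries, with a log2 fold change of 3.13 ± 0.24 (edgeR adjusted p = 6.36e-05), while Ft gave 0.86 ± 0.28 (edgeR adjusted p = 0.26). In RC4 both fractions were high, with 4.96 ± 0.24 in 4sU (edgeR adjusted p = 2.02e-06) and 4.92 ± 0.25 in Ft (edgeR adjusted p = 2.21e-06). The difference between the fractions in these changes was not tested.

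Sqstm1 and Zfand5 were called in the same fractions and conditions as Zfand2a. Sqstm1 in 4sU had 118 and 83.5 normalised RPM in NT, 351 in AS and 734 in RC4, and its Ft levels were 218 and 177 in NT, 269 in AS and 2474 in RC4. The receptor transcript was above both NT libraries in every treated library, and the log2 fold changes were 1.81 ± 0.24 in 4sU AS (edgeR adjusted p = 0.00366), 2.88 ± 0.24 in 4sU RC4 (edgeR adjusted p = 4.56e-05) and 3.65 ± 0.24 in Ft RC4 (edgeR adjusted p = 8.81e-06). Zfand5 in 4sU had 941 and 1051 in NT, 2026 in AS and 2425 in RC4, and in Ft 249 and 281 in NT, 422 in AS and 906 in RC4. Its log2 fold changes were 1.02 ± 0.20 in 4sU AS (edgeR adjusted p = 0.0192), 1.28 ± 0.19 in 4sU RC4 (edgeR adjusted p = 0.00122) and 1.77 ± 0.20 in Ft RC4 (edgeR adjusted p = 0.000207).

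Among the ATG8 genes, Map1lc3b was called in 4sU AS and in Ft RC4, and Gabarapl1 in both RC4 fractions. Map1lc3b in 4sU had 80.0 and 59.1 normalised RPM in NT, 147 in AS and 99.3 in RC4, so its AS library was the highest of the 4. The log2 fold change in AS was 1.09 ± 0.26 (edgeR adjusted p = 0.0475), and the call was lost with TMM factors (adjusted p = 0.0573, edgeR), with library totals (0.0887) and without either NT library (0.072 and 0.175), over a range of 0.00748 to 0.175 in 10 alternatives. The 4sU AS call of Zfand5 was likewise lost without either NT library (0.94 and 1.10 on the log2 scale, edgeR adjusted p = 0.0791 and 0.0515). In Ft, Map1lc3b had 82.3 and 109 in NT, 112 in AS and 205 in RC4, with 1.10 ± 0.25 in RC4 (edgeR adjusted p = 0.0112), lost with library totals (edgeR adjusted p = 0.0782, lowest over the alternatives 0.00151). Gabarapl1 in 4sU had 91.5 and 71.0 in NT, 135 in AS and 243 in RC4, and in Ft 113 and 89.3 in NT, 115 in AS and 426 in RC4. It rose in RC4 by 1.59 ± 0.23 on the log2 scale in 4sU (edgeR adjusted p = 0.00101) and by 2.08 ± 0.23 in Ft (edgeR adjusted p = 0.000202). Zfand2b and Zfand6 were called in neither fraction: Zfand2b had 50.9 and 53.3 in NT against 39.0 in RC4 of 4sU, and Zfand6 55.8 and 91.6 against 116. With library totals, Zfand2b in Ft RC4 was called lower, with -0.81 on the log2 scale (edgeR adjusted p = 0.0352, highest over the alternatives 0.563). Without NT replicate 2, Zfand6 was called higher in 4sU RC4 (1.05, edgeR adjusted p = 0.0237).

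Counted together, 4 of 8 genes were higher in 4sU AS, where 2.28% of all 10956 genes were, and 4 of 8 in 4sU RC4, where 12.9% were. In Ft AS none of the 8 was called by edgeR, with 0.739% of all genes called in either direction, and DESeq2 called 1, Zfand5 (adjusted p = 0.0472). In Ft RC4 5 of 8 were higher, against 14.0% of all genes. The fits rest on 2 residual degrees of freedom.

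In NT cells the ratio of Ft to 4sU, which the study reads as a measure of transcript stability, differed among the members. Zfand5 was lower in Ft than in 4sU, with a log2 ratio of -1.91 ± 0.17 (edgeR adjusted p = 3.67e-05), and Sqstm1 was higher, with 0.98 ± 0.21 (edgeR adjusted p = 0.00356). The other measured members were not called, with log2 ratios from -0.60 ± 0.25 for Zfand6 (edgeR adjusted p = 0.0708, and 0.0126 without 4sU NT replicate 1) to 0.47 ± 0.22 for Map1lc3b (edgeR adjusted p = 0.105). So 2 of 8 were called in a comparison in which 43.4% of all genes were. The fit took the 4sU and Ft libraries as separate and did not pair those of the same label time. The number of uridines in a transcript can set how well it is pulled down. After regression of the log2 ratio on the log2 of that number over 10616 genes, the residual was -1.56 for Zfand5 and 1.13 for Sqstm1, with no test. A residual is the distance from the fitted line and is not itself a ratio of Ft to 4sU.

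In total RNA of NIH3T3 cells Zfand2a, Zfand5, Sqstm1, Gabarapl1 and Map1lc3b were higher at RC4 than at any other time among the libraries numbered 4. Zfand2a had 17.0, 31.7 and 32.5 normalised RPM in NT (replicates 1, 2 and 4), 64.6, 101 and 60.8 in AS, and then 314 at RC4, 93.8 at RC8, 44.6 at RC12 and 16.0 at RC24. Every AS library was above every NT library, and the RC24 library was below all 3 NT libraries. The unblocked log2 fold change in AS was 1.48 ± 0.46, and edgeR called none of the members and 0% of the 10070 genes in AS (21 genes had an unadjusted p under 0.05, and DESeq2 called 0). Same-numbered NT and AS libraries deviated together, and with the replicate number as a block Zfand2a rose by 1.54 ± 0.22 (edgeR adjusted p = 0.0833), still not called, where 0.0894% of genes were.

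Sqstm1 had 29.1, 224 and 159 normalised RPM in NT, 56.3, 259 and 163 in AS, 1215 at RC4, 383 at RC8, 162 at RC12 and 120 at RC24. Replicate 1 was far below the others in NT and in AS, and within each number the AS library was above its NT library. The share of all genes with that order in each number was not counted. Zfand5 had 380, 149 and 225 in NT, 682, 380 and 305 in AS, and 460, 210, 154 and 191 at the 4 recovery times. Within each number its AS library was higher as well, and the blocked log2 fold change was 0.89 ± 0.19 (edgeR adjusted p = 0.242). Gabarapl1 had 217, 194 and 325 in NT, 307, 180 and 390 in AS, and 874, 501, 350 and 235 through recovery. For Map1lc3b the levels were 56.6, 168 and 162 in NT, 78.1, 172 and 181 in AS, and 381, 188, 157 and 144 through recovery. Both ATG8 transcripts were above every NT and AS library at RC4 and below the replicate 4 NT library by RC24.

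All recovery libraries carry the number 4. The unblocked fit called none of the members and 0% of genes at RC4 (535 genes had an unadjusted p under 0.05, and DESeq2 called 27, Zfand2a among them), whereas the fit with the replicate block, chosen after seeing the data, called 5 of 8 members, with 4.47% of genes called higher. Its log2 fold changes at RC4 were 3.61 ± 0.32 for Zfand2a (edgeR adjusted p = 0.00214), 3.09 ± 0.29 for Sqstm1 (edgeR adjusted p = 0.00264), 1.41 ± 0.25 for Gabarapl1 (edgeR adjusted p = 0.0177), 1.25 ± 0.24 for Map1lc3b (edgeR adjusted p = 0.0228) and 1.24 ± 0.29 for Zfand5 (edgeR adjusted p = 0.0421). At RC8 no member was called, with 0.179% of genes called under the block: Zfand2a was at 1.87 ± 0.34 (edgeR adjusted p = 0.0917) and Sqstm1 at 1.42 ± 0.29 (edgeR adjusted p = 0.109). By RC24 the blocked values were -0.68 ± 0.49 for Zfand2a and -0.25 ± 0.32 for Sqstm1. Zfand2b ran from 36.8 in NT and 40.2 in AS to 36.0 at RC4 and 25.0 at RC24, and Zfand6 from 41.8 and 51.4 to 40.8 and 48.0, in the libraries numbered 4. Zfand6 was far higher in replicate 1, with 273 in NT and 314 in AS, so that its NT and AS groups overlapped. Within each number the AS library was above its NT library for Zfand6 and for Zfand2b. Their blocked log2 fold changes were 0.31 ± 0.16 (edgeR adjusted p = 0.834) and 0.44 ± 0.19 (edgeR adjusted p = 0.805). Here too the share of all genes with that order was not counted.

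**Figure D2:**
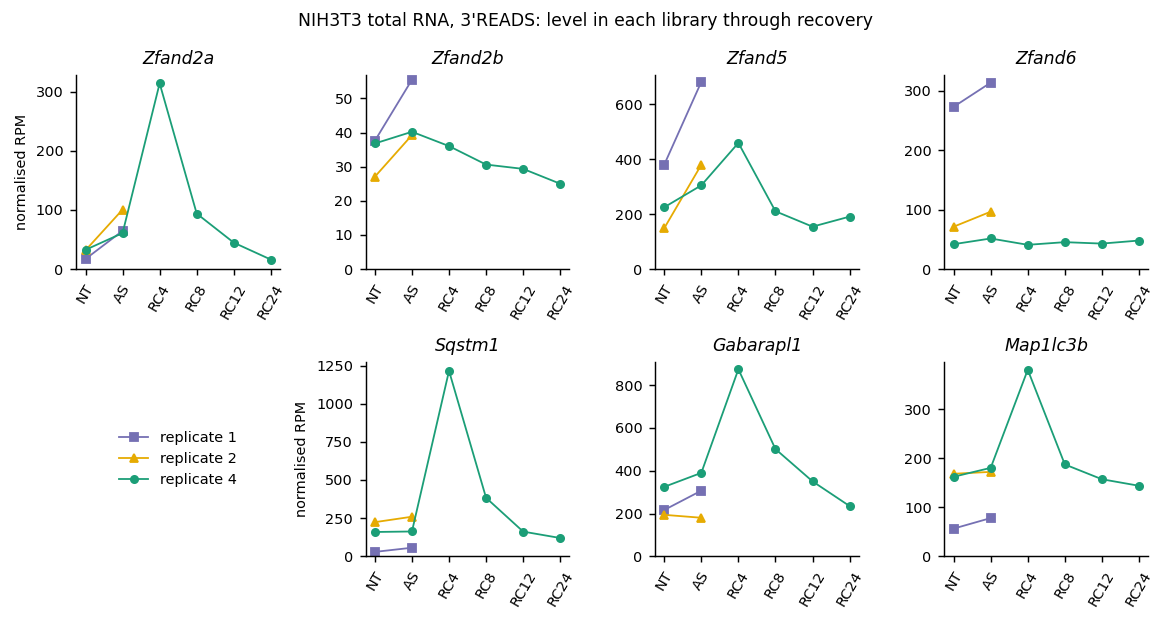
Normalised RPM of 7 of the genes in each NIH3T3 total RNA library, by condition from NT and AS through 4, 8, 12 and 24 h of recovery, with 1 line per replicate number. Zfand2a, Sqstm1, Gabarapl1 and Map1lc3b peaked at RC4 (314, 1215, 874 and 381) and fell to 16.0, 120, 235 and 144 at RC24; Vcp is not drawn because 3′READS gave it too few reads.

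In C2C12 cytoplasmic RNA, Zfand2a and Sqstm1 were called higher at RC4 in both MB and MT. Zfand2a had 13.8 and 29.1 normalised RPM in NT, 57.1 in AS and 354 in RC4 of MB, and 18.3 and 25.3 in NT, 21.0 in AS and 336 in RC4 of MT. In MB the AS library was above both NT libraries, whereas in MT it lay between them, and in RC4 both cell states were above every NT library. The log2 fold change at RC4 was 4.04 ± 0.40 in MB (edgeR adjusted p = 0.0196) and 3.94 ± 0.38 in MT (edgeR adjusted p = 0.0152). In AS it was 1.41 ± 0.42 in MB and -0.06 ± 0.45 in MT, and the difference, MT minus MB, was -1.47 ± 0.63 (edgeR adjusted p = 0.83). No gene passed that test of the difference in edgeR, where 576 had an unadjusted p under 0.05.

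Sqstm1 had 133 and 228 normalised RPM in NT, 264 in AS and 1201 in RC4 of MB, and 176 and 209 in NT, 310 in AS and 1117 in RC4 of MT. At RC4 it rose by 2.73 ± 0.33 in MB (edgeR adjusted p = 0.0358) and by 2.53 ± 0.33 in MT (edgeR adjusted p = 0.0316) on the log2 scale. Zfand5 had 162 and 107 in NT, 317 in AS and 462 in RC4 of MB, and 202 and 207 in NT, 307 in AS and 1027 in RC4 of MT. It was called at RC4 in MT, with 2.33 ± 0.27 (edgeR adjusted p = 0.0256), and missed the threshold in MB, with 1.78 ± 0.28 (edgeR adjusted p = 0.0522). In MB, DESeq2 (adjusted p = 5.88e-05), TMM factors (edgeR adjusted p = 0.0498), the filter of more than 5 reads in every library (0.00324) and the gene span alone (0.0489) called it. Gabarapl1 had 38.2 and 33.6 in NT, 45.6 in AS and 133 in RC4 of MB (1.89 ± 0.27, edgeR adjusted p = 0.0469), and 41.3 and 52.5 in NT, 50.4 in AS and 139 in RC4 of MT (1.56 ± 0.26, edgeR adjusted p = 0.057, and 0.00758 with the filter of more than 5 reads in every library). The MB call of Gabarapl1 was lost in DESeq2 (adjusted p = 0.0581) and with library totals (edgeR adjusted p = 0.0602, lowest over the alternatives 0.00419). For neither gene did the RC4 change differ between MT and MB by test, with differences of 0.54 ± 0.40 for Zfand5 (edgeR adjusted p = 0.771) and -0.32 ± 0.38 for Gabarapl1 (edgeR adjusted p = 0.886).

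In all, 3 of 8 genes were higher at RC4 in MB, where 0.860% of 10232 genes were, and 3 of 8 in MT, where 1.14% were. Those shares rest on few libraries: leaving out 1 NT library gave 968 or 1516 genes called in either direction in MB (113 with both) and 0 or 8 in MT (149 with both). In AS edgeR called none of the 8 in MB, with 0.0880% of genes called, or in MT, with 0.0489%, and DESeq2 called 1 in MB, Zfand5 (adjusted p = 0.0299). Summed levels of cell type markers differed too, with few calls. In MT, myotube markers summed to 20310 to 21000 RPM in NT, 16830 in AS and 12360 in RC4. At RC4, 0 of the 7 tested were called. Fibroblast markers in MT summed to 3375 to 3465 in NT, 6698 in AS and 6273 in RC4, where 1 of the 4 tested was called higher. In MB, fibroblast markers summed to 431.7 to 482.9 in NT, 971.2 in AS and 259.8 in RC4, where 0 of the 4 tested were called. Their part in the result was not tested. Map1lc3b had 122 and 123 in NT against 190 in RC4 of MB, and 189 and 203 against 215 in MT, and was called in neither. Zfand2b and Zfand6 were not called either, and Zfand6 spread from 19.4 to 59.9 between the 2 MB NT libraries. Without MB NT replicate 1, Zfand5 and Zfand6 were called in MB in AS (1.57 and 1.70 on the log2 scale) and at RC4 (2.11 and 2.41), and the RC4 change of Zfand6 differed between MT and MB (-2.69, edgeR adjusted p = 0.0453). Without MB NT replicate 2, Zfand5 was called in MB RC4 (1.52). Without either MT NT library, edgeR called no member in MT RC4, although the log2 fold changes held (Zfand2a 3.73 and 4.20, Sqstm1 2.42 and 2.67, Zfand5 2.31 and 2.35).

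**Figure D3:**
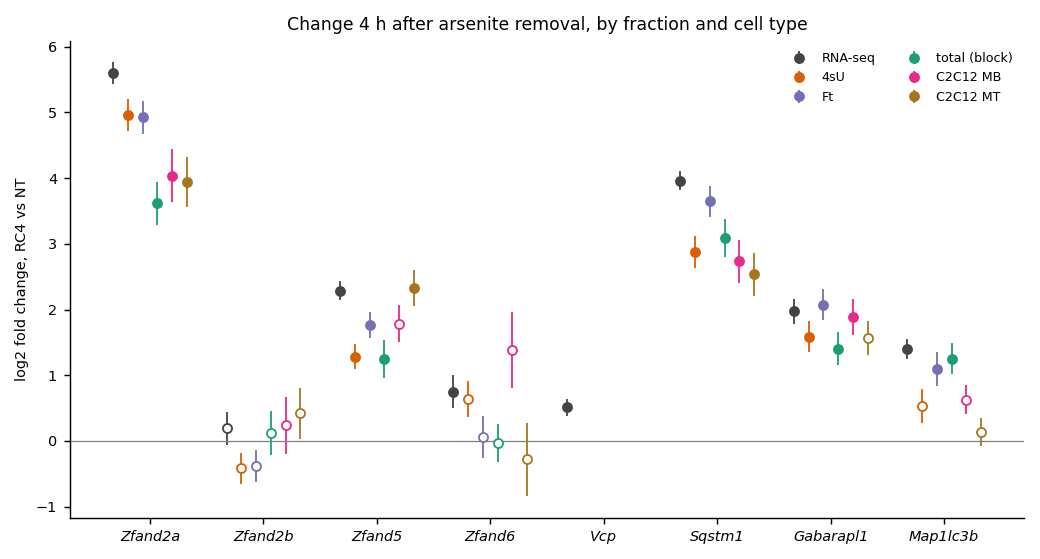
Log2 fold change, RC4 against NT, of each gene in 6 sets of libraries, with bars of 1 SE; filled points passed an edgeR adjusted p of 0.05, and the total RNA values are from the fit with the replicate block. Zfand2a (3.61 to 5.59) and Sqstm1 (2.53 to 3.96) are filled in all 6 sets, and Zfand2b in none.

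Without arsenite, 6 of the 8 transcripts were higher in MT than in MB total RNA, where 32.5% of 10345 genes were. Map1lc3b differed most, with 82.8 and 66.5 normalised RPM in MB and 220 and 219 in MT, a log2 difference of 1.57 ± 0.12 (edgeR adjusted p = 1.78e-08). Gabarapl1 had 33.0 and 37.9 in MB and 59.1 and 74.6 in MT (0.91 ± 0.16, edgeR adjusted p = 0.000142). The receptor Sqstm1 had 290 and 248 in MB and 478 and 428 in MT (0.75 ± 0.11, edgeR adjusted p = 1.31e-05). Among the AN1 genes, Zfand5 had 137 and 174 in MB and 298 and 278 in MT (0.88 ± 0.12, edgeR adjusted p = 7.64e-06), and Zfand2b had 63.4 and 58.0 against 93.1 and 96.4 (0.65 ± 0.13, edgeR adjusted p = 0.000403). Zfand6 had 29.4 in each MB library and 50.8 and 40.6 in MT (0.63 ± 0.17, edgeR adjusted p = 0.00469), and lost its call in DESeq2 (adjusted p = 0.0674) and without MT replicate 2 (0.47, edgeR adjusted p = 0.0656). The groups of these 6 genes did not overlap, but each held 2 libraries, and the share of all genes without overlap was not counted. Zfand2a, the member with the highest RC4 fold change in RNA-seq, had 28.5 and 21.9 in MB and 23.6 and 22.9 in MT and was not called (-0.10 ± 0.20, edgeR adjusted p = 0.674). Fibroblast markers moved with these transcripts: the 4 tested of 6 were all higher in MT, with a summed level of 11970 to 14140 RPM against 1966 to 2075 in MB, while Thy1 and Pdgfra were listed at 0 in both. Myoblast markers summed to 70.27 to 70.78 RPM in MT and 188.8 to 201.8 in MB, but did not move as a set. Of the 4 tested, Ccnd1 (-10.49) and Mki67 (-2.68) were called lower in MT and Myod1 (2.16) higher, on the log2 scale. The part of these marker changes in the result was not tested.

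**Figure D4:**
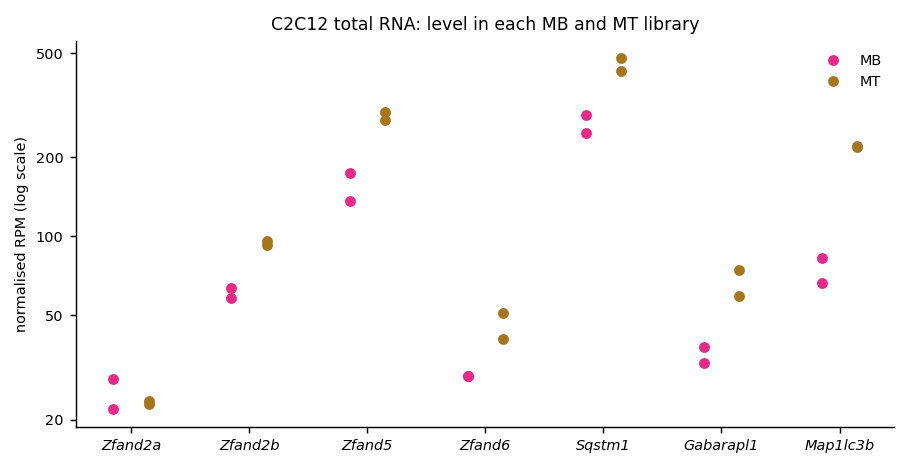
Normalised RPM (log scale) of 7 of the genes in each C2C12 total RNA library, 2 points for MB and 2 for MT. MT points lie above MB points for every gene but Zfand2a, with the widest gap for Map1lc3b (82.8 and 66.5 against 220 and 219).

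TIA1 is an RNA-binding protein of stress granules that favours U-rich sequence, and TIA1 RIP measures the RNA recovered with it. In the cytoplasmic input Zfand2a had 17.7 and 17.8 normalised RPM in NT and 54.6 and 64.5 in AS, and in the TIA1 RIP 26.1 and 13.9 in NT and 32.7 and 47.2 in AS. Its input levels did not overlap between NT and AS (log2 fold change 1.74 ± 0.51), but no member was called there by edgeR or DESeq2, and edgeR called 0.0101% of 9854 genes (160 genes had an unadjusted p under 0.05). No member was called in TIA1 RIP against input in NT, with 3.54% of genes called, or in AS, with 1.00%. The values that lay furthest from 0 in AS were those of Zfand2b, with 25.4 and 22.3 in input and 6.73 and 9.17 in TIA1 RIP (-1.58 ± 0.60, edgeR adjusted p = 0.193), and Map1lc3b, with 113 and 53.1 in input and 35.8 and 37.3 in TIA1 RIP (-1.19 ± 0.57, edgeR adjusted p = 0.294). Zfand5 had 96.8 and 228 in input and 129 and 320 in TIA1 RIP in NT, and 182 and 375 against 302 and 507 in AS, so each TIA1 RIP library was above the input of its number, by less than the spread between numbers (0.47 ± 0.60 in NT and 0.54 ± 0.60 in AS).

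The choice of PAS was examined for the genes with more than 1 site in use. Sqstm1 has further signals upstream of its main site, and Map1lc3b has a proximal site about 1 kb before its distal site.
Sqstm1 middle site, chr11:50013887-50013916, minus strand: ttttcaacaAATAAAgccattatgttaaga
Sqstm1 upstream site, chr11:50013927-50013956, minus strand: tgtttcctttATTAAAagtgattagtacaa
Map1lc3b proximal site, chr8:124120897-124120926, plus strand: actttttgcatcctaagttgccAATAAAaa
The middle and upstream sites held 10.25% and 5.46% of Sqstm1 reads, and the proximal site 8.52% of Map1lc3b reads. The AATAAA shown for the Map1lc3b proximal site ends only 2 nt before the mapped site, against 15 nt at the distal site. Of the 10 bases after that proximal site, 4 are A. Whether this AATAAA is the signal of the proximal site was not tested. For Gabarapl1, the site with most reads after the main one held 3.85% of its reads and carried none of the poly(A) signals searched.

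Map1lc3b used its distal site more in MT than in MB. The distal share of its reads was 97.36% and 94.83% in MT against 92.58% and 89.53% in MB total RNA, and the groups did not overlap. The log2 change in the ratio of distal to proximal reads was 1.26 ± 0.35 (edgeR adjusted p = 0.00527), and 13.1% of 3260 genes with 2 sites moved toward the distal site. Sqstm1 was tested too and not called (0.39 ± 0.22, edgeR adjusted p = 0.233). The Map1lc3b call was lost at a minimum of 20 reads per isoform, without MT replicate 2 (0.85, edgeR adjusted p = 0.207) and without MB replicate 3 (0.96, edgeR adjusted p = 0.128), and Sqstm1 was called without MB replicate 2 (0.86, edgeR adjusted p = 0.00164).

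In NIH3T3 total RNA, no change of site use in AS was called for the 3 members tested. The unblocked edgeR fit called 0% of 1706 genes, with 0 at an unadjusted p under 0.05, and DESeq2 was not run on site use. With site use so different between replicate numbers, that fit cannot show that site use stayed the same. Fisher's exact test within each replicate, with a change above 5 percentage points, called 206 of 3358 genes in replicate 1, 336 of 4147 in replicate 2 and 6 of 2037 in replicate 4, and no member in any. The lowest adjusted p of a member in that exact test was 0.0996, for Gabarapl1 in replicate 2, whose distal share was 90.9% in NT and 87.2% in AS. The log2 changes in the ratio of distal to proximal reads with the replicate block were 0.03 for Gabarapl1, 0.52 ± 0.28 for Map1lc3b and 0.20 ± 0.29 for Sqstm1. Sqstm1 site use separated the replicate numbers instead: the main site held 15.28% and 15.71% of the reads of its 3 sites in the NT and AS libraries of replicate 1, 87.09% and 88.27% in replicate 2, and 65.74% and 67.24% in replicate 4. Its part in the low Sqstm1 level of replicate 1 was not tested. In TIA1 RIP against input in NT, Gabarapl1 was the member with enough reads and was not called (0.49 ± 0.75, edgeR adjusted p = 0.846), with 0.480% of genes called.

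Zfand2a has 10 minor sites upstream of its main one, of which the 3 with most reads were followed. These 3 held 7.107% of the reads at them and the main site in 4sU RC4 (95% Wilson interval 6.295 to 8.016), 7.447% in Ft RC4 (6.259 to 8.839) and 8.55% in MB RC4 (6.471 to 11.22). The shares were 2.597% (1.492 to 4.485) in total RNA RC4 and 3.516% (2.427 to 5.067) in MT RC4, below those intervals. In 4sU NT they were 6.667% and 4.878%, from 75 and 123 reads, with intervals that reach the RC4 value, so no difference was detectable at this depth. The intervals cover counting error only.

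A further Zfand5 PAS lies 4160 nt past the annotated end, just outside the 4 kb limit, and was left out of the Zfand5 levels above. It is shown because it carries a canonical signal and 2618 reads in 31 libraries.
Zfand5 site past the limit, chr19:21360910-21360939, plus strand: acatcctaaatAATAAAaagggtgaaatta
Its share of the reads at it and the main site was 9.364% and 8.515% in 4sU NT and 4.29% and 5.114% in Ft NT. It was 2.328%, 1.348% and 0% in total NT, where the 0% means fewer than 5 reads in a library with 312 Zfand5 reads. In TIA1 RIP it was 14.67% and 11.69% in NT and 6.56% and 5.394% in AS, against 9.375% and 2.331% and then 2.757% and 2.09% in the input, so each TIA1 RIP library was above the input of its number. In C2C12 total RNA it was 10.0% and 11.36% in MT and 3.204% and 5.33% in MB. In cytoplasmic MT it went from 7.312% and 9.516% in NT to 3.356% in AS and 0.8034% in RC4. These are values with no test, and counting this site with the gene (5 kb in place of 4 kb) changed no Zfand5 call.

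**Figure D5:**
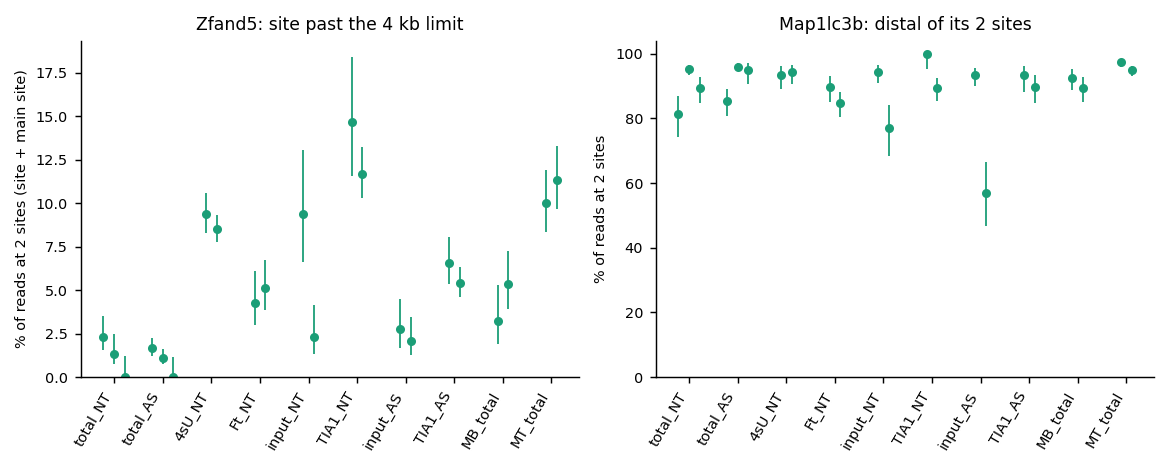
Share of reads (percent, with 95% Wilson intervals) at the Zfand5 site past the 4 kb limit, of the reads at it and the main site (left), and at the distal of 2 Map1lc3b sites (right), 1 point per library by group. The Zfand5 site was at 14.67% and 11.69% in TIA1 RIP of NT cells and at 0% in the replicate 4 total RNA libraries, and the Map1lc3b distal site at 97.36% and 94.83% in MT.

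The promoters of all 8 genes, whether they moved or not, were searched for short response motifs on both strands. All 8 genes matched RefSeq promoters (10 start sites, GRCm38.p6, 250 bases before to 50 after the start). The heat shock element pair TTCNNGAA was in 8.52% of 32851 promoters and, of the 8 genes, in Zfand2a alone, 196 bases before its start. TGACGTCA, the cAMP response element, which was added to the search after the sequences were seen, was in 1.79% of promoters and in Zfand2a and Zfand2b. The element TGACNNNGC of NRF2-type factors was in 12.4% and in Zfand5, Zfand6, Vcp and Map1lc3b, and the opposite heat shock pair GAANNTTC was in 7.86% and in Zfand6 and Vcp. None was in the Sqstm1 or Gabarapl1 window. The matches of Zfand2a, of its relative Zfand2b and of Map1lc3b are shown on the gene's strand with the match in capitals.
Zfand2a, chr5:139484669-139484698, minus strand: ttgcctgactgTTCTAGAAaataggcgggg
Zfand2a, chr5:139484598-139484627, minus strand: tgacatgtaagTGACGTCAtcacggcgccc
Zfand2b, chr1:75168628-75168657, plus strand: gcccaacgtgaTGACGTCAgagcgcgcgag
Map1lc3b, chr8:121590432-121590461, plus strand: gcgagtcaccTGACTCGGCtgcggactgag
A match is a string of letters in this window and was tested for no function.

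The other genes of the same machinery moved in part. In RNA-seq RC4, where 26.6% of all genes were called higher, all 3 other ATG8 genes were called higher, Map1lc3a by 0.96, Gabarapl2 by 0.84 and Gabarap by 0.50 on the log2 scale. Of 16 other autophagy receptor genes 9 were higher and 1 lower, with a median log2 fold change of 0.499, led by Fam134b (1.86), a receptor of the endoplasmic reticulum, Optn (1.84) and Tax1bp1 (1.43). Of 23 VCP cofactor genes 13 were higher and 3 lower, with a median of 0.419, led by Ubxn4 (2.26), Nploc4 (1.50), which recruits VCP to ubiquitin chains, and Derl1 (1.20). Core autophagy genes were split, 7 of 26 higher, near the share of all genes, and 5 lower, with a median of -0.376, from Pik3r4 at -2.14 to Wipi2 at 1.93 and Atg12 at 1.92. Of the 3 other AN1 genes, Zfand3 was higher (1.68). With library totals the counts became 0 higher and 0 lower for ATG8 and 4 and 7 for receptors. They were 2 and 11 for VCP cofactors and 3 and 16 for core autophagy genes. The ATG8 calls were thus lost. For receptors, VCP cofactors and core genes the direction of most calls depends on the scaling. In RNA-seq AS the lists had 1 call, Wdfy3, which was lower (-0.82).

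In the fractions at RC4 the counts are to be read against 12.9% of all genes called higher in 4sU and 14.0% in Ft. In 4sU, 3 of 16 receptors were higher and 1 lower (Bnip3 2.28, Bnip3l 1.01, Ccpg1 -1.13), 3 of 22 VCP cofactors were higher and 1 lower (Ubxn4 1.47, Ufd1l 1.46, Nploc4 1.30), and 4 of 23 core genes were higher and 1 lower (Wipi2 1.20, Becn1 0.97, Atg3 0.84). In Ft, 6 of 16 receptors were higher and 1 lower (Bnip3 by 5.65-fold, Optn by 2.23 and Tollip by 1.62 on the log2 scale), and 2 of 22 VCP cofactors were higher (Nploc4 1.42, Ubxn4 1.11). With library totals the counts higher and lower in 4sU were 1 and 3 for receptors and 3 and 3 for VCP cofactors. For 4sU core genes they were 2 and 2. In Ft they were 3 and 2 for receptors, 1 and 3 for VCP cofactors and 4 and 4 for core genes. The main fit had 5 and 1 for Ft core genes. With library totals more genes were lower than higher for 4sU receptors and Ft VCP cofactors. Ft receptors kept more higher, and the counts were even for the rest. Bnip3 and Bnip3l code for receptors of mitochondria. In C2C12 RC4, Wipi2 was higher in MB (1.76) and in MT (1.42), and Map1lc3a in MB (1.35), all of which lost their call with library totals.

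In MT against MB total RNA, where 32.5% of all genes were called higher, most receptor and core autophagy genes tested were higher. Of 16 receptors 11 were higher and 1 lower, with a median log2 difference of 0.684 against 0.038 over all genes, led by Calcoco1 (2.40), Bnip3 (1.83) and Ccpg1 (1.58). Of 24 core autophagy genes 14 were higher and 0 lower (median 0.351, with Atg10 at 3.35, Atg4a at 2.10 and Atg12 at 1.19), and of 20 VCP cofactors 9 were higher and 1 lower (median 0.145, with Derl1 at 1.98). Map1lc3a (2.60) and Gabarap (0.59) were higher among the 3 other ATG8 genes. With library totals the counts were 8 and 1 for receptors, 11 and 0 for core genes and 8 and 4 for VCP cofactors, whose median became 0.014.

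Over the 38 3′READS libraries, with log2 values set against the mean of the NT or untreated libraries of the same set, the genes most like Zfand2a were Txnl1 (Pearson's r = 0.895), Hmox1 (0.893), Dnaja4 (0.885), Hsp90aa1 (0.880) and Phlda1 (0.864) of 10593 genes. Among the members Sqstm1 was at 0.844, Gabarapl1 at 0.802, Zfand5 at 0.644 and Map1lc3b at 0.384, while Zfand6 was at -0.076 and Zfand2b at -0.148. The libraries share depth and scaling, and the RC4 libraries weigh most, so these values are a description.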

How the data were processed

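The deposited files hold read counts: raw counts per gene of strand-specific RNA-seq, and raw counts per PAS of 3′READS, with PASs listed by mm9 position. Per the submitters' processing notes cutadapt, Bowtie2, STAR and mm9 were used, with no role given there. Per the study's methods, RNA-seq counts are reads on the coding sequence. PASs within 24 nt were merged, 63197 of 83590 clusters were given to genes, and 88.56% to 96.05% of reads were assigned. Gene counts were tested with edgeR 4.0.16 (R 4.3.3; glmQLFit and glmQLFTest, filterByExpr, median ratio factors), adjusted by Benjamini-Hochberg over all genes, and site use by the interaction of isoform and condition, where both isoforms had over 5 reads in every library. Alternatives were DESeq2 1.42.0, TMM factors, library totals, other filters, other spans around the gene, the replicate block and leaving out each replicate. In simulated counts with a fixed spread and no replicate effect, the test recovered known changes. That setting lacks the differences between replicate numbers seen in total RNA, so it does not show how the test performs there.

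Total RNA libraries of NT and AS share replicate numbers: deviations from the group means correlated at 0.927 to 0.929 within numbers and at most -0.326 across them (4666 genes), so the numbers were taken as pairs. TIA1 RIP, input and C2C12 total RNA have only 2 numbers each. No 2 libraries were identical. The 8 genes were named in every comparison. From each further list, counts and at most 3 called genes of largest change were named, and for Zfand2a the 5 genes of highest correlation. Members and lists were chosen with earlier results of these data known. With log2(RPM + 1) values for correlations, an offset of 1 was used. Protein sequences were not used here. Counts as low as 5 were listed, which limits weak sites.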

Additional observations from a re-analysis of the deposited data

Results flagged for a closer look

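The Zfand5 site past the 4 kb limit gave reads in every TIA1 RIP library although it is outside the counted span. The lower of the 2 TIA1 RIP libraries held 19.17 RPM at it in NT, above both inputs (8.71 and 4.551 RPM), and 21.48 RPM in AS, above both inputs (4.589 and 7.414 RPM). It was picked out because it lies outside the main measurement and is above the input, which was taken as the control. In the same libraries the main Zfand5 level was also higher in TIA1 RIP than in the input of the same number, and its part in this was not tested. No enrichment test was run on this site.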

How the results depend on the processing

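Library totals reversed the sign of 3 values in RNA-seq RC4: Zfand2b -0.612, Zfand6 -0.053 and Vcp -0.296 (log2). The count of members called changed as follows. In total RNA RC4 (0) it was 5 with the replicate block and 1 with DESeq2. In Ft AS (0) and MB AS (0) DESeq2 gave 1. In TIA1 RIP against input in NT (0) the replicate block gave 1, Zfand6 (0.93 ± 0.29, edgeR adjusted p = 0.0463), but with 2 libraries the numbers are not shown to pair. In Map1lc3b site use, MT against MB (1), the 20-read minimum gave 0. Leaving out 1 library gave 2 to 2 in 4sU AS (4), 0 to 2 in MB AS, 4 to 5 in MB RC4 (3), 0 to 0 in MT RC4 (3), 0 to 1 in the RC4 difference between MT and MB (0), and 0 to 2 in MT against MB site use. The replicate block changed no other member call. Over all genes and with all libraries the counts of calls ran from 271 to 596 in RNA-seq AS (470), 3915 to 7730 in RNA-seq RC4 (5726), 247 to 701 in 4sU AS (399), 49 to 172 in Ft AS (81), 102 to 519 in MB RC4 (113), 111 to 362 in MT RC4 (149) and 278 to 1830 in TIA1 RIP in NT (349). Leaving out 1 library gave 135 to 184 in 4sU AS, 197 to 209 in Ft AS, 54 to 436 in MB AS (9), 968 to 1516 in MB RC4, 0 to 8 in MT RC4, 0 to 167 in TIA1 RIP in NT, 0 to 18 in AS (99) and 300 to 534 in MT against MB site use (612). Library totals moved the share of calls that were higher from 53.3% to 29.8% in 4sU RC4, from 59.7% to 27.0% in Ft RC4 and from 77.9% to 40.9% in MB RC4. Leaving out an RNA-seq library left no residual degrees of freedom, so these are values with no test (Zfand2a RC4 5.51 to 5.67, Sqstm1 RC4 3.78 to 4.15). Depth limits Vcp in 3′READS and the minor sites, and 1 library per treated group limits AS and RC4 outside total RNA.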
